A study of Drosophila melanogaster with 8 samples.

Results

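The circadian clock genes period (per), timeless (tim), Clock (Clk), cycle (cyc), vrille (vri), Pdp1, clockwork orange (cwo), cryptochrome (cry), double-time (dbt) and Pdfr were examined in RNA of adult Drosophila heads. The members are the 12 probe sets annotated to 1 of these 10 symbols alone, out of 18769 probe sets tested, and each of the 10 genes was measured. The gene dbt was found under its current symbol dco, and tim and cwo have 2 probe sets each. A probe set is a group of short probes near the 3' end of a transcript, and the array gives it a log2 level, on which a difference of 1 is a 2-fold change. The question was whether clock genes of opposite daily phase differed in opposite ways between HEXIM knockdown and WT heads.

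The 8 arrays came from total RNA of whole heads, pooled over many flies per sample, with 4 biological replicates per genotype. HEXIM knockdown flies carried GMR-Gal4 and UAS-Hexim-RNAi, and their labelled strain was W118. WT flies were of the W118 strain and carried neither the driver nor the RNAi transgene. All flies were reared at 29°C, and the labels and methods give no collection time, light schedule, age or sex. GMR-Gal4 drives expression in differentiating eye cells, whereas the measured RNA came from the whole head, with its eyes, brain, glia, fat body, muscle and cuticle. In such bulk RNA, fewer cells of a type and less RNA per cell cannot be told apart. The driver, the transgene and any difference in their genetic background go with the genotype and cannot be told apart from the knockdown.

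The fly clock is a feedback loop in which the CLK and CYC proteins bind E-box sequences and activate per, tim, vri, Pdp1 and cwo, whose transcripts are high around dusk or early night. PER and TIM return to the nucleus and inhibit CLK and CYC, while VRI represses and PDP1 is held to activate transcription of Clk, so that Clk and cry transcripts are high around dawn. In whole heads most clock gene RNA comes from photoreceptors and glia, since the clock neurons of the brain are few. Light and temperature cycles set the phase of the clock, and the level of a cycling transcript in a sample depends on the time of day at which heads are collected.

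Hexim itself had log2 levels of 7.60, 7.54, 7.52 and 7.77 in the HEXIM knockdown arrays (replicates 1 to 4), against 8.14, 7.85, 7.96 and 7.79 in the WT arrays. Its log2 fold change, HEXIM knockdown minus WT, was -0.33 (SE 0.10, limma adjusted p = 0.418), and its probe set may also read the hairpin RNA. Correlations between arrays lay between 0.974 and 0.997. HEXIM knockdown replicate 4 and WT replicates 1 and 3 were set off from the remaining 5 by the first principal component. They also had the lowest middle minus 3' levels of the control genes GAPDH and Act5C, -3.80 to -3.40 against -2.64 to -2.24 in the other 5, a measure used to judge RNA integrity. Markers of eyes, neurons and glia were well detected: the mean log2 level over the 13 measured photoreceptor genes was 11.37 to 11.54 in HEXIM knockdown arrays and 11.43 to 11.67 in WT arrays. Over the 10 glial genes it was 9.51 to 9.77 in HEXIM knockdown arrays, against 9.69 to 9.85 in WT arrays, and over the 12 neuronal genes 9.86 to 10.05 in HEXIM knockdown arrays, against 9.91 to 9.97 in WT arrays. The opsin genes, norpA, ninaC and ninaA were not measured under their own names.

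None of the 12 clock probe sets passed the test (limma, Benjamini-Hochberg adjusted p under 0.05 over all probe sets), where 0.256% of all probe sets did. The number was also 0 in each of the 16 alternative fits, in which the lowest adjusted p of any clock probe set was 0.127. At an unadjusted p under 0.05 there was 1 clock probe set, that of per, where 7.24% of all probe sets reached this value. The log2 fold change was positive in 5 and negative in 7 of the 12, and 44.6% of all probe sets had a positive value. Its median was -0.05 over the clock probe sets and -0.02 over all probe sets tested. The arrays of the genotypes did not overlap for 1 of the 12, again per, where 5.35% of all probe sets did not overlap and 1.99% did so with HEXIM knockdown higher.

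**Figure D1:**
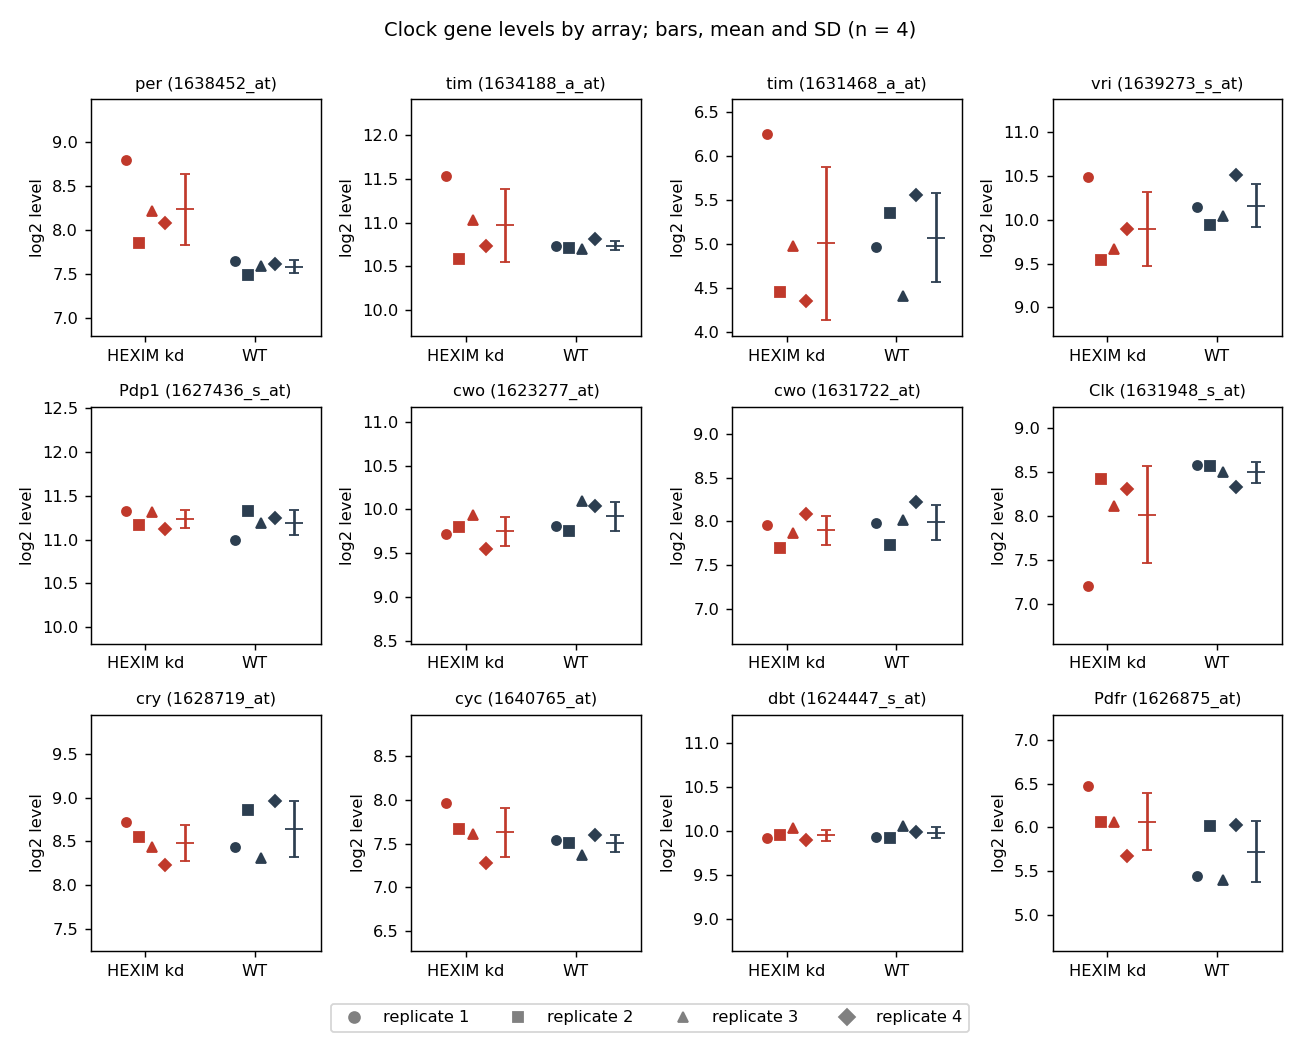
Log2 levels of the 12 clock probe sets in each array, with HEXIM knockdown (red) left of WT (dark) and the mean and SD of 4 arrays beside the points; all panels span the same log2 range. The HEXIM knockdown levels of per, 7.85 to 8.80, all lie above the WT levels, 7.49 to 7.65, and HEXIM knockdown replicate 1 (circle) is the highest array for per, tim, cyc and Pdfr and the lowest for Clk.

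Among the members, per came closest to a difference. per, whose protein inhibits CLK and CYC, had log2 levels of 8.80, 7.85, 8.22 and 8.08 in HEXIM knockdown replicates 1 to 4, against 7.65, 7.49, 7.59 and 7.61 in WT replicates 1 to 4. Every HEXIM knockdown array lay above every WT array. The mean was 8.24 ± 0.40 in HEXIM knockdown and 7.58 ± 0.07 in WT heads (SD, n = 4 each), a log2 fold change of 0.65 (SE 0.18, 1.57-fold), with an adjusted p of 0.334 from limma. The exact two-sided permutation test gave p = 0.0286, the smallest that 4 arrays against 4 allow. The fold change was 0.47 (SE 0.11) without HEXIM knockdown replicate 1, the highest array, 0.47 to 0.78 whichever array was left out, and 0.37 with array weights. Those weights were 9.035 for HEXIM knockdown replicate 2 and 0.271 to 0.872 for the other HEXIM knockdown arrays. Weighted fold changes, here and below, thus rest mostly on replicate 2 on the HEXIM knockdown side. The levels also lay apart on either side of the RNA integrity split: HEXIM knockdown replicate 4 stood at 8.08, against 7.65 and 7.59 in WT replicates 1 and 3, and among the other 5 arrays the fold change was 0.74 (limma adjusted p = 0.539). The adjusted p of per ranged from 0.200 to 0.695 over the alternative fits.

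tim encodes the partner of PER, which light destroys through cryptochrome. Its bright probe set (1634188_a_at) had 11.53, 10.58, 11.02 and 10.74 in HEXIM knockdown replicates 1 to 4, against 10.73, 10.71, 10.70 and 10.81 in WT replicates 1 to 4. HEXIM knockdown replicates 1 and 3 lay above all WT arrays, replicate 2 lay below them and replicate 4 lay among them. The log2 fold change of 0.23 (SE 0.19, limma adjusted p = 0.995) became 0.04 without HEXIM knockdown replicate 1 and -0.07 with array weights. The dim probe set (1631468_a_at), close to the array medians of 5.43 to 5.57, stood at 6.25, 4.45, 4.97 and 4.35 in HEXIM knockdown arrays and at 4.97, 5.36, 4.41 and 5.56 in WT arrays. The highest and the lowest of the 8 arrays were HEXIM knockdown replicates 1 and 4, and the log2 fold change was -0.07 (SE 0.43), or -0.48 without HEXIM knockdown replicate 1 and -0.65 with array weights. The 2 probe sets of tim thus had fold changes of opposite sign, neither of them past the test, while both were highest in HEXIM knockdown replicate 1.

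Among the other E-box driven genes, vri and cwo had fold changes of the opposite sign to per. vri, the repressor of Clk, had 10.49, 9.54, 9.67 and 9.89 in HEXIM knockdown arrays, against 10.15, 9.94, 10.05 and 10.51 in WT arrays. HEXIM knockdown replicates 2, 3 and 4 lay below all WT arrays, and replicate 1 lay close to the highest WT array. The log2 fold change was -0.26 (SE 0.22, limma adjusted p = 0.996) and -0.46 (adjusted p = 0.505) without HEXIM knockdown replicate 1. It was -0.59 with array weights, and -0.14 and -0.15 without HEXIM knockdown replicate 2 and without WT replicate 4. Pdp1, for the counterpart of VRI, ranged from 11.12 to 11.32 in HEXIM knockdown and from 11.00 to 11.33 in WT arrays, with a log2 fold change of 0.04 (SE 0.10). cwo, a repressor that competes at E-boxes, had log2 fold changes of -0.17 (SE 0.11) and -0.09 (SE 0.12) in its 2 probe sets, which ranged from 9.55 to 9.93 and from 7.69 to 8.08 in HEXIM knockdown arrays, against 9.75 to 10.09 and 7.74 to 8.22 in WT arrays. The first of these fold changes was -0.23 to -0.11 and the second -0.18 to -0.01 when 1 array was left out. Of the 7 probe sets of evening phase genes, 3 thus had a positive and 4 a negative fold change.

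The morning phase genes are Clk and cry. Clk, which encodes the activator of the loop, had 7.20, 8.42, 8.11 and 8.31 in HEXIM knockdown replicates 1 to 4, against 8.58, 8.57, 8.50 and 8.33 in WT replicates 1 to 4. HEXIM knockdown replicate 1 lay far below the others, and replicate 2 lay above the lowest WT array, so that the groups overlapped. The mean was 8.01 ± 0.55 in HEXIM knockdown and 8.50 ± 0.12 in WT heads (SD, n = 4 each), a log2 fold change of -0.48 (SE 0.25, 0.715-fold), with an adjusted p of 0.800 from limma and p = 0.0571 in the exact two-sided permutation test. Without HEXIM knockdown replicate 1 the fold change was -0.22 (SE 0.11, limma adjusted p = 0.825), and with array weights it was -0.14.

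cry, the blue light receptor that links light to TIM, had 8.72, 8.55, 8.43 and 8.23 in HEXIM knockdown arrays, against 8.44, 8.86, 8.31 and 8.96 in WT arrays. The groups overlapped, with the lowest array in HEXIM knockdown and the 2 highest in WT. Its log2 fold change was -0.16 (SE 0.17, limma adjusted p = 1.00), with a range of -0.27 (without WT replicate 3) to -0.05 (without WT replicate 4) when 1 array was left out, and -0.34 without the 3 arrays that stood apart. In HEXIM knockdown replicate 1, where Clk was lowest, cry was the highest of the 4 HEXIM knockdown arrays.

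The remaining members have no strong daily cycle of their own. cyc, the partner of CLK, stood at 7.96, 7.66, 7.61 and 7.28 in HEXIM knockdown arrays and at 7.54, 7.51, 7.37 and 7.59 in WT arrays, a log2 fold change of 0.12 (SE 0.14) that became 0.01 without HEXIM knockdown replicate 1 and 0.24 without replicate 4. dbt, the kinase that marks PER for degradation, varied least among the members, from 9.90 to 10.04 in HEXIM knockdown and from 9.93 to 10.06 in WT arrays, with a log2 fold change of -0.03 (SE 0.07). Pdfr, the receptor of the clock neuron peptide PDF, stood at 6.47, 6.06, 6.07 and 5.67 in HEXIM knockdown arrays and at 5.44, 6.02, 5.40 and 6.02 in WT arrays, a log2 fold change of 0.34 (SE 0.21, limma adjusted p = 0.906). It was 0.21 without HEXIM knockdown replicate 1 and 0.18 without the 3 arrays that stood apart. All 3 overlapped between the genotypes. The probe sets of vri, Pdp1, Clk and dbt end in _s_at, a type that can match transcripts of several genes.

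**Figure D2:**
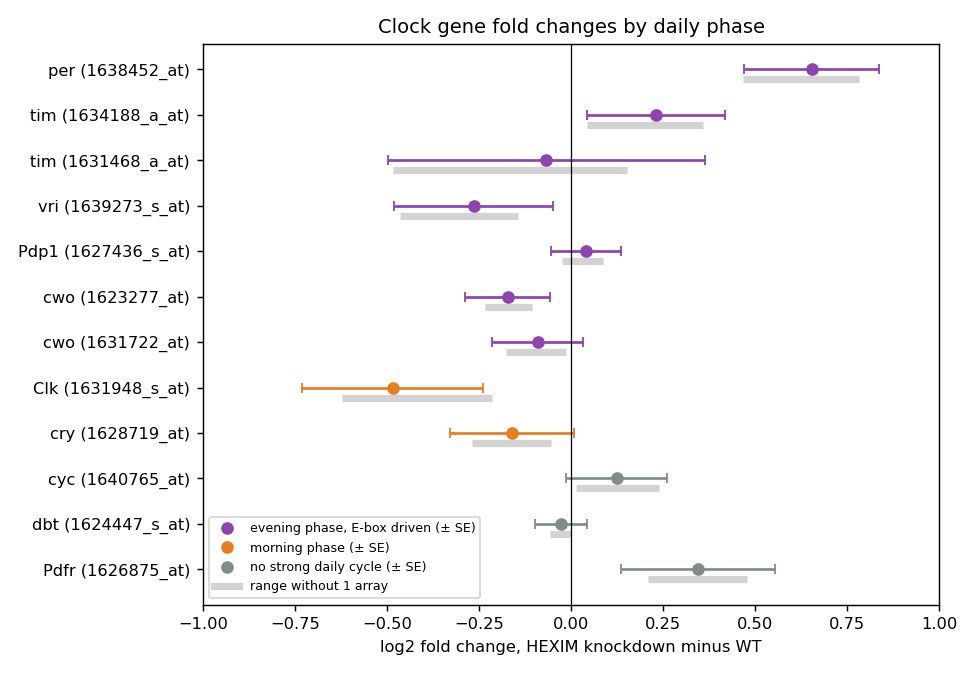
Log2 fold change of each clock probe set, HEXIM knockdown minus WT, with its SE (limma, 4 arrays per genotype) and, in grey, the range when any 1 array is left out. The evening phase genes lie on both sides of 0, from -0.26 for vri to 0.65 for per, while Clk and cry lie at -0.48 and -0.16.

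The phase groups as a whole were described by a score, the mean level of per, tim, vri, Pdp1 and cwo minus the mean of Clk and cry, each by its brightest probe set and relative to the WT mean. It was 1.06, -0.05, 0.41 and 0.26 in HEXIM knockdown replicates 1 to 4, against 0.01, -0.22, 0.17 and 0.05 in WT replicates 1 to 4. HEXIM knockdown replicates 1, 3 and 4 lay above every WT array and replicate 2 lay below 3 of them. The mean was 0.42 ± 0.47 in HEXIM knockdown and 0 ± 0.16 in WT heads (SD, n = 4 each). Its evening part was 0.45, -0.13, 0.11 and -0.04 in HEXIM knockdown replicates 1 to 4, against -0.08 to 0.12 in WT arrays. Its morning part was -0.61, -0.08, -0.30 and -0.30, against -0.16 to 0.15 in WT arrays. The evening part thus lay on both sides of 0. The morning part was below 0 in each HEXIM knockdown array, but also in WT replicates 1 and 3, at -0.06 and -0.16. Its value in HEXIM knockdown replicate 2, -0.08, lay within the WT range. Without HEXIM knockdown replicate 1 the difference was 0.21, and it is given with no test. The signs of the fold changes thus did not follow phase: per and Clk had opposite signs, while vri and cwo had the sign of Clk and cry. Those of tim (bright probe set) and Pdp1 changed with array weights. Only per was apart between the genotypes. None of these fold changes passed the test, so their signs do not settle whether genes of opposite phase differed in opposite ways.

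HEXIM knockdown replicate 1 carried the widest deviations of per, tim and Clk. Relative to the WT mean, per was higher there by 1.21, tim by 0.79 in its bright and 1.18 in its dim probe set, and vri by 0.33, while Clk stood at -1.29 and cry at 0.07. In HEXIM knockdown replicate 3 per stood at 0.63, tim at 0.29 and Clk at -0.39, but vri at -0.50. In replicate 4 per stood at 0.50, tim at -0.00, vri at -0.27 and Clk at -0.19, and in replicate 2 the same genes stood at 0.27, -0.15, -0.62 and -0.07. The size of the per, tim and Clk deviations thus differed between HEXIM knockdown arrays, with replicate 1 first, whereas vri was below the WT mean in the 3 others.

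**Figure D3:**
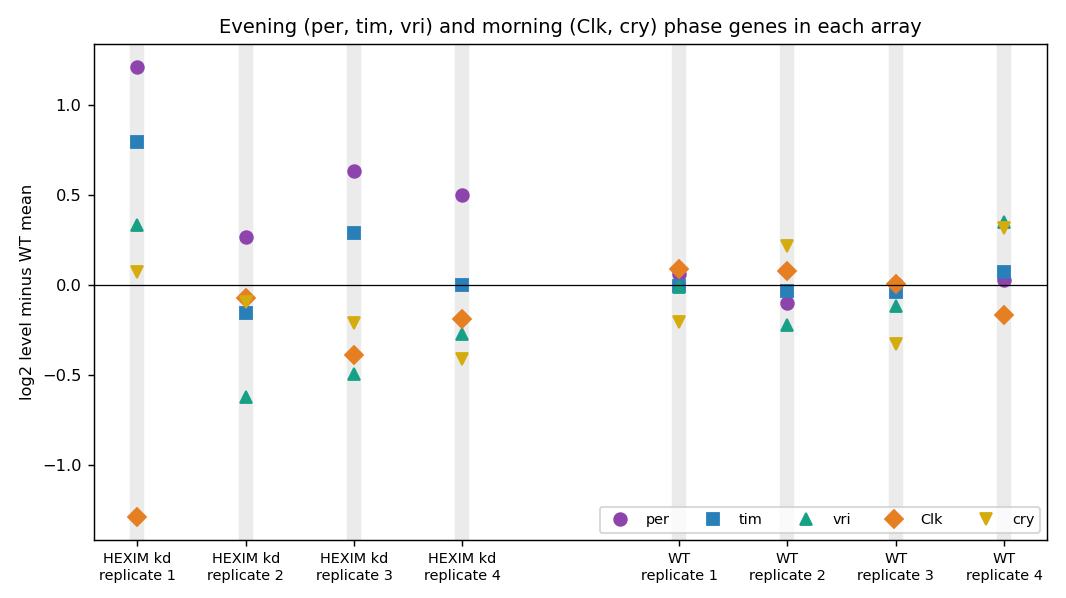
Log2 level minus the WT mean of the evening phase genes per, tim and vri and the morning phase genes Clk and cry in each of the 8 arrays, HEXIM knockdown left of WT. In HEXIM knockdown replicate 1 per is at 1.21 and Clk at -1.29, while the WT arrays have per and tim close to 0.

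HEXIM knockdown replicate 1 was the highest or the lowest of the 8 arrays for 6 of the 12 clock probe sets, the highest for per, both tim probe sets, cyc and Pdfr and the lowest for Clk. The same array was at an extreme in 32.3% of all probe sets. HEXIM knockdown replicate 4 was the lowest array for 5 of the 12, against 41.7% of all probe sets at an extreme, and each of the other 6 arrays was at an extreme for 0 to 3. Over all probe sets those 6 shares were 12.3% and 30% for HEXIM knockdown replicates 2 and 3, and 23%, 19.9%, 21% and 19.8% for WT replicates 1 to 4. The spread between HEXIM knockdown arrays was wider than between WT arrays for per, tim and Clk, with ratios of the SDs of 5.79, 8.15 and 4.68. Ratios at least as large were found in 1.12%, 0.458% and 1.97% of all probe sets. The tim ratio is that of the bright probe set, and that of the dim one was 1.73, which 25.9% of all probe sets reached or exceeded. For vri and cry the ratios were 1.70 and 0.64, which 26.6% and 86.5% of all probe sets reached or exceeded. cyc, with no strong daily cycle, had a ratio of 2.86, which 7.85% reached or exceeded. The probe sets of Pdp1, cwo, dbt and Pdfr had ratios of 0.74 to 1.02, so a wide spread was not shared by all cycling genes.

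Marker levels moved with this array too. The mean level over the 8 measured fat body genes was highest in HEXIM knockdown replicate 1, at 12.04, and ranged from 11.01 to 12.04 in HEXIM knockdown and from 9.51 to 11.41 in WT arrays. All 8 had a positive log2 fold change, with a median of 0.82, and none passed the test. The list mean of 9.51 was that of WT replicate 3, against 11.01 to 11.41 in the other WT arrays. Except for Fbp1, every gene of the list was lowest in that array, so that the fold changes of those genes rest in part on it. The smallest p values were those of Fbp1, a larval serum protein receptor, and Lsp2, a storage protein. Fbp1 stood at 1.17 (SE 0.28, limma adjusted p = 0.243) and Lsp2 at 0.91 (SE 0.34, limma adjusted p = 0.582). For Fbp1 the genotypes lay apart, as in 1.99% of all probe sets in this direction. Fbp1 did not follow the list in HEXIM knockdown replicate 1, where it stood at 8.54, against 9.17 to 9.93 in the other HEXIM knockdown arrays. The 4 genes used as markers of female heads, Yp1, Yp2, Yp3 and fit, are 4 of these 8 genes and no separate evidence. Their mean was 12.91 in HEXIM knockdown replicate 1, in a range of 11.31 to 12.91 in HEXIM knockdown and of 9.21 to 12.22 in WT arrays. Yp2 stood at 0.98 (SE 0.76) and Yp1 at 0.35 (SE 0.28), and none of the 4 passed the test.

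The glial, neuronal and muscle lists were lowest in HEXIM knockdown replicate 1, with means of 9.51, 9.86 and 10.56, and the muscle list ranged from 10.56 to 11.01 in HEXIM knockdown and from 10.84 to 11.20 in WT arrays. Glial genes were 4 positive and 6 negative with none past the test. The 3 of 10 with an unadjusted limma p under 0.05 were all negative, where 7.24% of all probe sets reached this value in either direction. The blood-brain barrier receptor gene moody had a log2 fold change of -0.60 (SE 0.10, limma adjusted p = 0.0730). Every HEXIM knockdown level of moody was under the WT levels, as for 3.37% of all probe sets. wrapper, a gene of axon-wrapping glia, stood at -0.41 (SE 0.14, limma adjusted p = 0.506) and Mdr65, named after its value was seen, at -0.30. Among photoreceptor genes the transcription factor gene Pph13 stood at 0.33 (SE 0.09, limma adjusted p = 0.292). Its genotypes lay apart, as in 1.99% of all probe sets in this direction. The phosphatase gene rdgC stood at -0.34 (SE 0.11, limma adjusted p = 0.421), or -0.10 in its other probe set. Neuronal genes were 6 positive and 6 negative, with elav at -0.16 (SE 0.11) and para at 0.16 (SE 0.16). Muscle genes were 1 positive and 7 negative. Of the 8 measured 1 passed the test, where 0.256% of all probe sets did. This was TpnC4, lower by a log2 fold change of -1.24 (SE 0.14, limma adjusted p = 0.0156), and Act88F stood at -0.33 (SE 0.15). The part of fat body, female heads, glia, neurons or muscle in the clock gene levels was not tested.

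Deviations of the cycling clock genes from their genotype mean were then compared over the 8 arrays, for the 21 pairs of 7 genes. None of the 21 pairs passed Benjamini-Hochberg adjustment, and 5 had an unadjusted p under 0.05 in an exact permutation of the arrays within genotype, which are named after their values were seen. per and tim had a Pearson r of 0.98 (exact permutation p = 0.0104, adjusted p = 0.109) and a Spearman rho of 0.83 (exact permutation p = 0.0208, adjusted p = 0.310). Without the 2 arrays farthest from the median of per, HEXIM knockdown replicates 1 and 2, the r was 0.77. Without HEXIM knockdown replicate 1 alone it was 0.88 (exact permutation p = 0.0972, adjusted p = 0.802), no longer under an unadjusted 0.05. An r as far from 0 with per was found for 0.0107% of all probe sets.

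Clk had negative values with the genes of its inhibitors. Its r was -0.97 with tim (exact permutation p = 0.0104, adjusted p = 0.109) and -0.96 with per (exact permutation p = 0.0174, adjusted p = 0.122). The rho was -0.76 with tim (exact permutation p = 0.0295, adjusted p = 0.310) and -0.81 with per (exact permutation p = 0.0868, adjusted p = 0.406). Without HEXIM knockdown replicates 1 and 2, the r was -0.82 with tim and -0.70 with per. Without HEXIM knockdown replicate 1 alone, it was -0.87 with tim (exact permutation p = 0.0417, adjusted p = 0.802) and -0.72 with per (exact permutation p = 0.153, adjusted p = 0.802), so that the size of these relations rests in part on that array.

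The other pairs were looser. Of the other evening phase genes, Pdp1 had an r of 0.32 with per, 0.49 with tim and -0.48 with Clk. The r of cwo with the same genes was 0.01, 0.09 and -0.09. None of these had an unadjusted exact permutation p under 0.05, which with 8 arrays does not show that the genes did not covary. The r of tim with vri was 0.81 (exact permutation p = 0.0660, adjusted p = 0.231), or 0.16 without HEXIM knockdown replicates 1 and 2. The r of vri was 0.84 with per (exact permutation p = 0.0382, adjusted p = 0.160) and -0.88 with Clk (exact permutation p = 0.0278, adjusted p = 0.146), and the rho was 0.69 with per (exact permutation p = 0.102, adjusted p = 0.406) and -0.69 with Clk (exact permutation p = 0.0677, adjusted p = 0.406). Without the 2 farthest arrays these r values were 0.33 and -0.34, so that they rest on those arrays, HEXIM knockdown replicate 1 among them. Clk and cry, of the same phase, had an r of -0.47 (exact permutation p = 0.174, adjusted p = 0.401) and a rho of -0.45 (exact permutation p = 0.174, adjusted p = 0.423). Among the 5 arrays of higher middle minus 3' level the smallest exact permutation p that could be reached was 0.0833. Without 1 array it was 0.00694, a value that a single pair could not bring past adjustment over the 21 pairs.

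**Figure D4:**
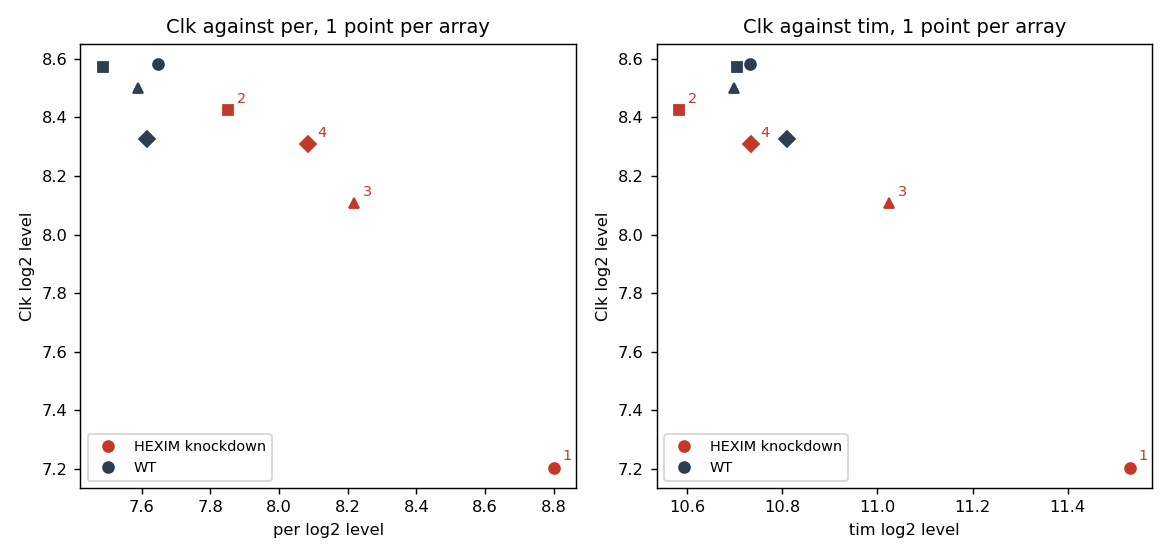
Log2 level of Clk against per (left) and tim (right), 1 point per array, with the HEXIM knockdown arrays in red and numbered by replicate and the WT arrays dark. HEXIM knockdown replicate 1 lies alone at a Clk level of 7.20 and a per level of 8.80, and the WT arrays lie between 8.33 and 8.58 for Clk.

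Genes around the core loop were read from lists, by the brightest probe set of each gene. None of their genes passed the test. Of the clock kinases, phosphatases and protein turnover genes, 12 of 18 were measured, 6 with a positive and 6 with a negative log2 fold change and a median of 0.01. The smallest p values were those of jet, the F-box gene of light-driven TIM degradation, at -0.22 (SE 0.09, limma adjusted p = 0.595), and Bdbt, a binding partner of DBT, at -0.26 (SE 0.12, limma adjusted p = 0.708). Of the cofactor and translation genes, 14 of 16 were measured, 8 positive and 6 negative, with a median of 0.03. Hr51, a nuclear receptor of clock neurons, stood at 0.32 (SE 0.09, limma adjusted p = 0.322). brm, the ATPase of the Brahma chromatin remodeller, stood at -0.28 (SE 0.09, limma adjusted p = 0.455). In both, named for their small p, the genotypes did not overlap, as in 5.35% of all probe sets.

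Of the peptide, receptor and excitability genes of clock neurons, 24 of 25 were measured, 17 positive and 7 negative, with a median of 0.09. Over all probe sets 44.6% had a positive value. The mean level of this list was 7.68 and 7.83 in WT replicates 1 and 3 and 7.83 in HEXIM knockdown replicate 4, against 7.96 to 8.15 in the other arrays. Those low arrays also had the lowest middle minus 3' levels. The part of RNA integrity in these signs was not tested. The potassium channel gene sand had a log2 fold change of 0.33 (SE 0.14, limma adjusted p = 0.628). The receptor gene Dh31-R had 0.30 (SE 0.13, limma adjusted p = 0.681), and its other probe set 0.07. Of the light input genes, 7 of 15 were measured, 3 positive and 4 negative, with a median of -0.01. Rh7, a rhodopsin of the clock light input, stood at 0.34 (SE 0.09, limma adjusted p = 0.286) and at 0.08 in its other probe set. In the brighter probe set the genotypes lay apart, as in 1.99% of all probe sets in this direction.

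Of 19 output genes that cycle in heads, 17 were measured, 7 with a positive and 10 with a negative log2 fold change and a median of -0.12, and again none passed the test. The arylalkylamine N-acetyltransferase gene AANAT1 (now speck), which inactivates monoamines, averaged 10.75 ± 0.30 in HEXIM knockdown and 11.43 ± 0.17 in WT heads (SD, n = 4 each), a log2 fold change of -0.68 (SE 0.16, limma adjusted p = 0.235). Pdh, a retinal dehydrogenase of pigment cells, averaged 13.47 ± 0.15 in HEXIM knockdown and 13.77 ± 0.02 in WT heads (SD, n = 4 each), a log2 fold change of -0.30 (SE 0.09, limma adjusted p = 0.373). In both, all 4 HEXIM knockdown levels were under the lowest WT level, as for 4 genes of this list in all, where 3.37% of all probe sets lay apart in this direction. The other 2 were Ugt35B1 and trpl, named after their values were seen. Of the photoreceptor genes, 2 had a positive and 11 a negative fold change, with a median of -0.10. trpl stands in both lists.

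The output genes also set HEXIM knockdown replicate 1 apart: it was the highest or the lowest of the 8 arrays for 12 of the 17, 5 times the highest and 7 times the lowest, against 32.3% of all probe sets. The following genes of this list were picked after their values were seen. The potassium channel binding gene Slob stood at 10.11 in this array and at 9.24 to 9.53 in the other 7. The deubiquitinase gene Usp8 stood at 9.35, against 8.43 to 8.87, and the ecdysteroid hydroxylase gene Cyp18a1 at 8.96, against 6.98 to 7.83. Lower there were ebony (e), the beta-alanyl amine synthase of glia, at 9.62 against 10.01 to 11.01, and CG10513 at 5.99 against 7.01 to 7.84. Other extremes in the count were narrow, such as Gclc at 9.624, against at most 9.621 in the other 7 arrays. The dim genes CG11891, at 3.60 against 3.63 to 3.89, and CG5156 (now CG42329), at 4.40 against 3.65 to 4.35, were also counted.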

How the data were processed

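The deposited table holds log2 levels, 1 value per probe set and array, made by the authors from Affymetrix Drosophila_2 3' end arrays. RMA and Affymetrix Expression Console stand in the submitters' processing notes and GCRMA in the methods, so which of them made the table is not settled. The log2 levels were used as deposited. Arrays give no depth, so precision is limited by how many there were.

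The table held 18952 probe sets, of which 183 controls were left out. Of the 18769 tested, 13646 have 1 gene symbol, 402 several and 4721 none in the annotation used here. HEXIM knockdown minus WT was fitted with lmFit and eBayes of limma 3.58.1 (R 4.3.3) on all 8 arrays, without a replicate block, using Benjamini-Hochberg adjustment over all probe sets, a threshold of 0.05 and no minimum fold change. The fit was tested on simulated data, where it called 28% of 50 probe sets changed by a log2 value of 0.5 and 82% of 50 changed by 1. Changes of the size seen in the clock genes can therefore go uncalled. Exact permutation tests, correlations (576 arrangements within genotype) and figures were made in Python 3.11.15, using scipy 1.17.1, pandas 2.3.3, matplotlib 3.10.9 and numpy 2.4.6.

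All member probe sets, Hexim and, of each list, the genes that passed the test and the 2 with the smallest p were named. Lists covered clock kinases, cofactors, clock neurons, light input, cycling outputs and markers of photoreceptors, neurons, glia, fat body, female heads and muscle. The members and lists were chosen with earlier results of these data known. Alternatives were leaving out each array, a replicate block, array weights, quantile normalization, median centring, a filter at a level of 5, a trended robust prior, a covariate for RNA integrity and a fit without the 3 arrays that stood apart. For the score, other probe sets and other members were tried.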

Additional observations from a re-analysis of the deposited data

Results flagged for a closer look

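Of 68 groups of 4 arrays that were looked at, 4 held an array far from the other 3, where chance alone gives about 1 in 20, or 3.4. None was a clock probe set. The light input gene Rh7 stood at 8.55 in HEXIM knockdown replicate 3, against 8.29 to 8.30 in the other HEXIM knockdown arrays. jet stood at 5.75 in WT replicate 2, against 5.81 to 5.81 in the other WT arrays, a gap that is small on the log2 scale. The yolk protein genes Yp1 and Yp2 stood at 12.19 and 9.49 in WT replicate 3, against 13.31 to 13.37 and 12.19 to 12.62 in the other WT arrays.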

How the results depend on the processing

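No clock probe set passed the test and no pair of clock genes passed adjustment under any alternative run. For the pairs, the smallest exact permutation p that could be reached was 0.00694 without 1 array and 0.0833 without the 3 arrays that stood apart. These limits left little room to pass in the first case and none in the second. The number of probe sets called, 48 with the deposited levels, was 507 with array weights, 104 with the RNA integrity covariate, 3 without the 3 arrays that stood apart and 10 to 48 without 1 array. The array weights gave HEXIM knockdown replicate 2 a weight of 9.03. Of the 12 clock probe sets, 5 had a positive fold change, 3 with array weights and 4 to 6 without 1 array. Array weights turned the bright tim probe set to -0.0731 and Pdp1 to -0.0489, and gave per 0.37, Clk -0.14, vri -0.59 and the dim tim probe set -0.65. The fit without the 3 arrays turned Pdp1 to -0.0188 and dbt to 0.0118. Without 1 array the dim tim probe set ranged from -0.48 to 0.15, Pdp1 from -0.0239 to 0.0873 and dbt from -0.0559 to 0.000774, and the score difference from 0.21 to 0.58. None of these values passed the test, and the cause was not tested. With the replicate number as a block, 1 probe set and no clock probe set was called. Deviations of same-numbered arrays correlated at -0.11, 0.57, -0.19 and -0.72, and 2 of 8 arrays correlated best with their own number, so the numbers were not taken to pair the samples.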
